A study of Junonia coenia with 24 samples.

Results

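The intervals described here are the stretches of open chromatin that stood out in the forewing libraries labelled prepupa of the buckeye butterfly Junonia coenia. A forewing interval was taken where its mean in the libraries labelled prepupa was at least 3 CPM and at least 3 times the mean of each of the other 3 forewing groups. CPM is the read count of an interval as a part of the library's total count in intervals, multiplied by 1e6. Of 500558 forewing intervals 3040 met this rule (0.607%), which is 3.94% of the 77175 intervals that had 3 CPM or more in the prepupal forewing. They are called prepupa-only intervals below, a name that covers the forewing labels alone. The forewing values chose them, so forewing differences between prepupa and the other groups are given as a description and are not tested.

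ATAC-seq was carried out on nuclei of whole wing tissue, forewings and hindwings being sampled at 4 labelled stages. These were the 5th instar, the prepupa, 72 h after pupation and 6 d after pupation, the last with titles that say day 7. Each of the 8 groups of wing and stage held 3 libraries, 24 in all, from caterpillars and pupae kept at about 27 °C. All 24 library descriptions carry the tag PLAS, whose meaning is not given, and beside it the labels name no strain, genotype, sex or treatment for any group, and they do not say whether the replicates came from separate animals. Because whole wings were used, more cells with an open interval and a more open interval in each cell cannot be told apart.

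ATAC-seq uses a transposase that cuts and tags DNA wherever nucleosomes and other proteins leave it accessible, and an interval collects more reads the more open it is. Open intervals are mostly promoters, where transcription starts, and enhancers, which are bound by transcription factors and act on genes at a distance. In the prepupa, the short stage between the last larval instar and the pupa, a pulse of the steroid hormone ecdysone acts through its receptor EcR, and the wing discs, the larval wing precursors, turn outward and expand. Wing pigments are made later, in the pupa. EcR and spineless, a transcription factor, are named in the study's title. The interval lists carry no gene names. The sources used here name no genome build for the contigs, so each interval is located only by its contig, start and end, without a gene.

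Forewing libraries had total counts of 7733254 to 22020858, and hindwing libraries of 6977525 to 14795457. Library totals and TMM factors, which correct for composition, disagreed for the prepupal forewing: totals placed it 0.48 log2 units higher against the other 9 forewing libraries than TMM did. With CPM scaled by TMM factors 661 of the 3040 intervals still met the rule, and no others did. Stage labels did not line up between the wings. Over 97467 well-matched intervals that were not prepupa-only, taken relative to the mean of the wing, the prepupal forewing profile had a Pearson r of 0.92 with the hindwing labelled 6 d and 0.23 with the hindwing labelled prepupa. These correlations are across intervals, which are not independent replicates and share their libraries. The labels of a wing may therefore stand for other stages than they name, and which wing's labels would be affected cannot be told from these files. Stage names are used below as labelled, "prepupal forewing" and the like meaning the libraries with that label, and no library was moved to another group.

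In the prepupal forewing the prepupa-only intervals had a median of 4.88 CPM (quartiles 3.70 and 7.68), with 150 at 20 CPM or more and 7 at 100 CPM or more. Their medians in the other forewing groups were 1.01 CPM at the 5th instar, 1.25 CPM at 72 h and 0.831 CPM at 6 d. The ratio of the prepupal mean to the highest other mean had a median of 3.53, with quartiles of 3.21 and 4.34, so most of the intervals lay close to the threshold of the rule. A ratio of 5 or more was found for 521 of them, 10 or more for 158, and 50 or more for 10. For 2929 of the 3040 every prepupal library lay above all 9 other forewing libraries. The same separation held for 16.9% of all forewing intervals and for 35.4% of those with at least 3 CPM in the prepupal group, and nothing is read from it because the rule used these values.

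The group with the second highest forewing mean was 72 h for 2060 prepupa-only intervals (67.8%), the 5th instar for 655 and 6 d for 325. In at least 1 of the other forewing groups 120 intervals had no reads: 61 had none in the 3 libraries of the 5th instar, 4 had none at 72 h and 76 had none at 6 d. A count of 0 over a group allows up to 0.114 CPM at the 5th instar, 0.0536 CPM at 72 h and 0.111 CPM at 6 d (3 counts over the group, counting error only). A single interval had no read in all 3 other groups.

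At the threshold of the rule the intervals differed little from their neighbours outside it. On the fold threshold, 000053F:1193153-1193493, with a ratio of 3.0001, was in, and 000089F:616106-616404, with a ratio of 2.9997, was out. On the level, 000032F:1184182-1184462 was in at 3.0003 CPM in the prepupal forewing, and 000152F:488268-488495 was out at 2.99999 CPM.

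The choice was repeated with 1 replicate number left out of every forewing group, and the left-out libraries were then read. Intervals chosen without replicate 1 numbered 4164, of which 1071 (25.7%) met the full rule in the replicate 1 libraries alone, against 0.721% of all forewing intervals. Of 2622 intervals chosen without replicate 2, 1152 (43.9%) met it in replicate 2, against 1.51% of all intervals. Of 4309 chosen without replicate 3, 1051 (24.4%) met it in replicate 3, against 0.840%. The prepupal library was the highest of the left-out 4 for 96.2%, 95.9% and 93.5% of the chosen intervals, the shares over all forewing intervals being 43.3%, 44.4% and 41.6%. In the left-out libraries the direction was the same for most chosen intervals and the size for fewer: the median ratios there were 2.33, 2.96 and 2.21. The shares over all 500558 forewing intervals are not matched for level, since only 77175 had 3 CPM or more in the prepupa. Whether replicates came from separate animals is not labelled either. The counts are therefore a description, and nothing is read from their distance to those shares.

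All but 3 of the prepupa-only intervals (99.9%) overlapped an interval of the hindwing table, which the rule did not use, as did 99.98% of the other forewing intervals with at least 3 CPM in the prepupa. Each was matched to the hindwing interval that shared the most bases, giving 3017 distinct hindwing intervals for 3037 prepupa-only ones. Of these matches 2466 covered at least 50% and 1484 at least 80% of both intervals. The 3 without a partner were 000012F:2563078-2563511, 000013F:2413889-2414192 and 000005F:4950540-4950867, all with prepupal forewing means near the minimum of the rule, at 3.58, 3.28 and 3.14 CPM.

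The hindwing intervals that overlap prepupa-only intervals were most open in the hindwing group labelled 6 d, not in the one labelled prepupa. Their share of all hindwing counts was 0.617%, 0.460% and 0.495% in the 5th-instar libraries (replicates 1 to 3), 1.15%, 0.581% and 1.53% in the prepupa libraries, 0.385%, 0.414% and 0.417% at 72 h, and 2.26%, 2.24% and 2.12% at 6 d. The hindwing 6 d libraries lay above all other hindwing libraries without overlap. Prepupa replicates 1 and 3 lay between them and the rest, and prepupa replicate 2 fell within the range of the 5th-instar libraries. In the forewing the prepupa-only intervals held 0.475%, 0.396% and 0.415% of counts at the 5th instar, 2.34%, 2.43% and 2.25% in the prepupa, 0.638%, 0.461% and 0.551% at 72 h, and 0.342%, 0.376% and 0.384% at 6 d, the prepupal height being set by the rule. Mean shares were 2.34% ± 0.088 (SD, n = 3) in the prepupal forewing and 2.21% ± 0.075 (SD, n = 3) in the 6 d hindwing.

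**Figure D1:**
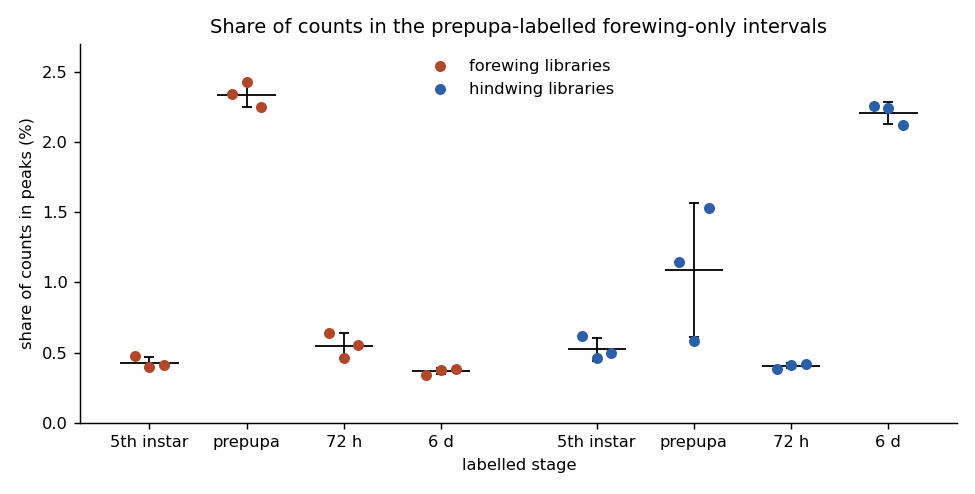
Share of each library's counts (y axis, %) that fell in the 3040 prepupa-only forewing intervals (red) or in the 3017 hindwing intervals that overlap them (blue), by labelled stage. Points are libraries, and black lines are the group mean with 1 SD (n = 3). The 6 d hindwing libraries, at 2.12% to 2.26%, stand where the prepupal forewing libraries stand, at 2.25% to 2.43%, and the prepupal hindwing libraries spread from 0.581% to 1.53%.

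Taken interval by interval, 2970 of the 3037 (97.8%) had their highest hindwing mean at 6 d, against 41.1% of all tested hindwing intervals. The highest mean was in the prepupa for 52 intervals, at 72 h for 9 and at the 5th instar for 6, where the shares over all tested hindwing intervals were 25.3%, 18.5% and 15.2%. With TMM-scaled CPM the count for 6 d was 2915, against 29.6% of tested intervals. Among the 1484 closely matched intervals 1461 were highest at 6 d, 23 in the prepupa and none in either of the other groups. Levels were also alike across the tables, each scaled to its own totals: for these 1484 the log2 ratio of the 6 d hindwing to the prepupal forewing mean had a median of -0.03, with quartiles of -0.20 and 0.11. For the prepupal hindwing, with 0.5 CPM added to both means, the median was -0.999 and the quartiles -1.33 and -0.68.

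**Figure D2:**
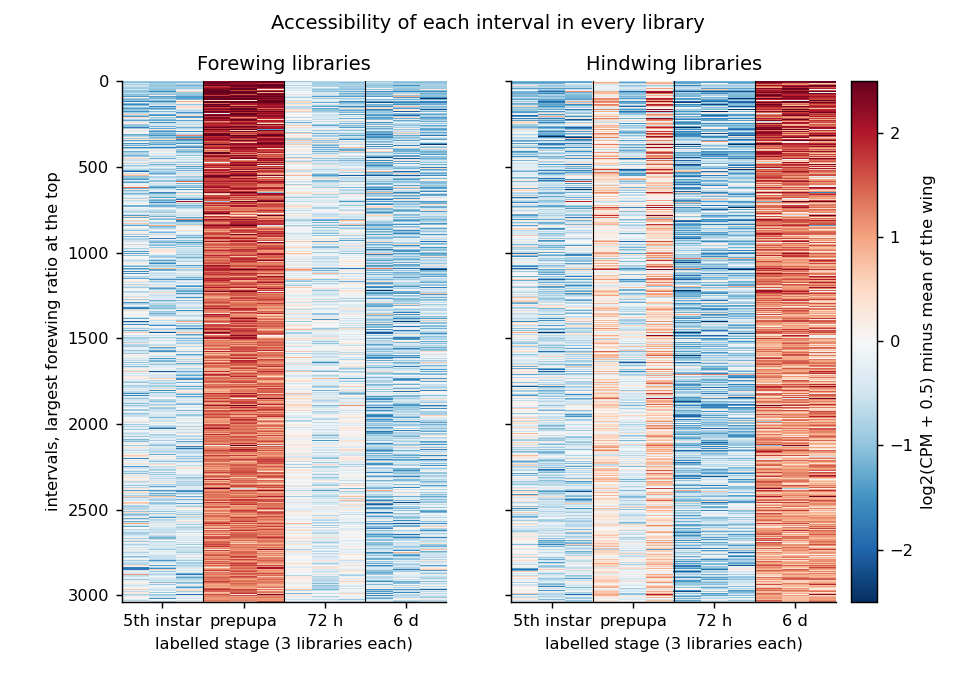
Heat map of the 3037 prepupa-only intervals with a hindwing partner (rows, largest forewing ratio at the top) in the 12 forewing (left) and 12 hindwing libraries (right), ordered by labelled stage. Colour is log2(CPM + 0.5) minus the row's mean over the wing, red above and blue below it. The red columns are the prepupa in the forewing, as the rule requires, and 6 d in the hindwing, where 2970 intervals had their highest mean. Prepupal hindwing replicates 1 and 3 are paler red and replicate 2 is not.

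The hindwing counts were tested because the rule did not use them. Hindwing and forewing libraries may still come from the same animals, which the labels do not say. The 12 hindwing libraries were fitted together with the edgeR quasi-likelihood F test, and an interval was called where the Benjamini-Hochberg adjusted p over all 258640 tested hindwing intervals was under 0.05. Of the 3037 partners 2886 passed the filter on low counts. For 695 of these only the 6 d libraries lifted the interval over the filter, so the counts below do not describe every prepupa-only interval. The other 2191 reached it in at least 3 libraries outside the 6 d group. Counts over these 2191 alone, a choice made after seeing the data, are given beside the counts over all 2886. Over the 4 hindwing groups 2298 of 2886 were called in the joint test, against 39.1% of all tested intervals, and 1759 of the 2191.

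Against 72 h, 2284 of the 2886 rose at 6 d, where the share over all tested intervals was 14.0%, and 4 fell (all intervals, 20.9%). The median log2 change was 1.91, and 0.01 over all tested intervals. Of the 2191 1749 rose (79.8%), against 26883 of the 223622 tested intervals that reached the filter in the same way, with median log2 changes of 1.82 and -0.16. Against the 5th instar 1929 rose at 6 d (all intervals, 7.74%) and 1 fell (14.5%). The median log2 change was 1.60, where all intervals had 0.07. Of the 2191 1457 rose (66.5%), against 6.77% of the 223622, with medians of 1.48 and -0.06. Against the prepupa 640 rose at 6 d (1.86%) and none fell (6.59%). Here the median log2 change was 0.96, where all intervals had -0.07. Of the 2191 448 rose (20.4%), against 1.64% of the 223622, with medians of 0.86 and -0.15. The count of falls by edgeR was 0 at an unadjusted p under 0.05 as well, and DESeq2 also gave 0. The count of 640 was 333 without prepupal hindwing replicate 1 and 325 without replicate 2, and 276, 308 and 392 without 6 d replicates 1, 2 and 3.

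**Figure D3:**
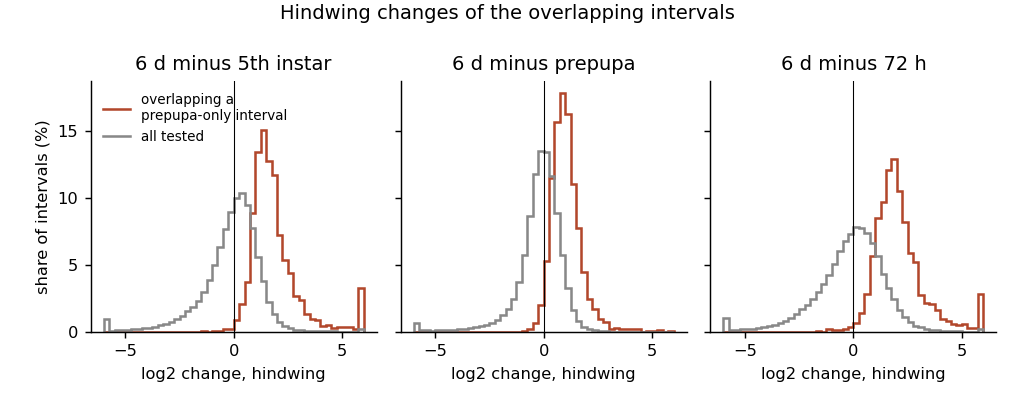
Distribution of hindwing log2 changes (x axis, TMM-scaled edgeR fit) for tested intervals overlapping a prepupa-only interval (red) and for all tested hindwing intervals (grey), as a share of each set (y axis, %). The panels are 6 d minus 5th instar, 6 d minus prepupa and 6 d minus 72 h. Changes beyond 6 in size are drawn in the outermost bins. The red curves have medians of 1.60, 0.96 and 1.91, and the grey ones lie near 0.

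At 6 d 546 of the 2886 (18.9%) were called higher than in each of the other 3 hindwing groups, against 0.829% of all tested intervals. Among the 2191 that passed the low-count filter without help of the 6 d libraries the count was 380 (17.3%), against 0.670% of the 223622. No interval was called higher in the prepupa than in each other group (all intervals, 0.320%) or higher at the 5th instar than in each other (1.57%), and 3 were called so at 72 h (6.25%). For the prepupa and the 5th instar edgeR gave 0 at an unadjusted p under 0.05 as well, and DESeq2 gave 0 for both. At an unadjusted p under 0.05 the edgeR count for 6 d was 1374. Without single libraries the count of 546 was 280 and 284 (prepupa replicates 1 and 2 left out) and 229, 246 and 324 (6 d replicates 1, 2 and 3 left out), while the shares over all tested intervals were 0.293%, 0.377%, 0.219%, 0.250% and 0.371%. Of the 661 intervals that met the rule with TMM-scaled CPM 641 were tested, and 195 of them (30.4%) were called higher at 6 d than in each other hindwing group. How many of the 641 passed the low-count filter only with 6 d libraries is not given, so nothing is read from this share.

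Separation between libraries told the same without a model. Every 6 d hindwing library lay above all 9 others for 1780 of the 3037 partners (58.6%), against 10.2% of all hindwing intervals. The forewing rule itself, at least 3 CPM and 3 times each other mean, was met in the hindwing for 6 d by 455 of them (14.98%), against 0.202% of all hindwing intervals. It was met by none for the 5th instar, the prepupa or 72 h, where 0.285%, 0.123% and 0.995% of all hindwing intervals met it. The count of 455 was 282 without prepupal hindwing replicate 2 and 705 without replicate 3.

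The hindwing labelled prepupa took a middle place that depended on its libraries. Replicate 1 lay above every 5th-instar and 72 h hindwing library for 2094 partners (69.0%) and replicate 3 for 2314 (76.2%), while replicate 2 did so for 748 (24.6%). The shares over all hindwing intervals were 35.4%, 33.5% and 18.3% for replicates 1, 3 and 2. In the edgeR fit 270 partners rose in the prepupa against the 5th instar (all intervals, 1.47%) and 4 fell (3.77%). That count of 270 was 549 without prepupa replicate 2, 131 without replicate 1 and 69 without replicate 3, and it was 177, 93 and 80 without 5th-instar replicates 1, 2 and 3. At 72 h against the prepupa 817 fell (7.78%) and 28 rose (12.9%). Without prepupa replicate 1 539 fell, without replicate 3 369, and without 72 h replicate 1 500.

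How far an interval stood out in the forewing went with its hindwing values. Intervals with a forewing ratio of 3 to 4 had a median hindwing ratio, 6 d to the highest other mean, of 1.92, those with 4 to 5 had 2.26, those with 5 to 10 had 2.75, and the 158 with 10 or more had 4.39. All of these 158 had their highest hindwing mean at 6 d, and 67 of them (42.4%) were called higher there than in each other group. The share over all tested intervals was 0.829%. The median of the 158 in the prepupal hindwing was 0.905 CPM, under the level of the low-count filter, about 1.11 CPM. How many of them passed it only with 6 d libraries is not given, so nothing is read from the 67. The 1569 intervals of lowest prepupal forewing level, under 5 CPM, had a median hindwing ratio of 2.08 and the 150 with 20 CPM or more had 1.99, so the hindwing ratio did not follow the level. The share called rose with the level up to 20 CPM: it was 10.6% under 5 CPM, 22.2% from 5 to 10 CPM, 33.9% from 10 to 20 CPM and 31.3% above. These are shares of all partners, the 151 untested ones being counted as not called. They include intervals that passed the filter only with 6 d libraries. Shares over all tested intervals of like level are not given, so whether the rise is particular to these intervals is not known.

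Intervals without reads in a forewing group also tended to lack them in the hindwing, most often in the group of like profile but not there alone. Of the 61 with no read in the 5th-instar forewing 47 had none in the 5th-instar hindwing, against 84 of the 3037 partners. In the hindwing at 72 h 22 of the 61 had none. Of the 76 with no read in the forewing at 6 d 54 had none in the hindwing at 72 h, against 88 of the 3037. In the 5th-instar hindwing 25 of the 76 had none. None of the 3037 partners lacked reads in the hindwing at 6 d, so this holds for both sets as for all. Their medians there were 4.19 and 3.71 CPM. The 76 lay on 42 contigs.

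Same-numbered libraries of the prepupal forewing and the 6 d hindwing also deviated together. Within each group the log2 CPM of a library was taken relative to the group mean over the 1484 closely matched prepupa-only intervals. Prepupal forewing and 6 d hindwing libraries of the same number had Pearson r values of 0.62, 0.66 and 0.71 for replicates 1, 2 and 3, and r lay between -0.49 and -0.12 for unlike numbers. Over 41871 other well-matched intervals with at least 3 CPM in the prepupal forewing the same-number values were lower, at 0.26, 0.32 and 0.36. Between the 2 groups labelled prepupa the same-number values were 0.06, -0.04 and -0.23. Such agreement was also seen between the 5th-instar wings (0.44, 0.41 and 0.44) and between the 6 d forewing and the 72 h hindwing (0.57, 0.51 and 0.51). Over the prepupa-only intervals it was not seen throughout between the 72 h forewing and the prepupal hindwing, at 0.38, 0.32 and -0.17. Unlike numbers of this pair ran from -0.52 to 0.36. Over the 41871 other intervals the pair did agree in all replicates, at 0.31, 0.52 and 0.32, with unlike numbers from -0.44 to 0.20. These r values are across intervals, and deviations within a group of 3 are not independent of each other. Whether same-numbered wings came from the same animals is not given, so the hindwing may not be an independent set of animals.

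The most open prepupa-only interval was 000926F:11469-15430, 3962 bp wide, at 555, 461 and 592 CPM in the prepupal forewing. It had 14.6, 7.37 and 8.45 CPM in the forewing at the 5th instar, 38.4, 12.4 and 11.6 CPM at 72 h and 11.4, 13.4 and 0.923 CPM at 6 d. The prepupal libraries lay far above all others. In the hindwing its partner had 13.6, 9.11 and 8.46 CPM at the 5th instar, 93.3, 11.04 and 143 CPM in the prepupa, 12.3, 10.8 and 0.364 CPM at 72 h and 542, 435 and 588 CPM at 6 d. The 6 d libraries did not overlap any other, prepupa replicates 1 and 3 came next, and replicate 2 lay with the 5th instar. At 6 d the log2 change was 5.41 ± 0.81 against 72 h (SE; edgeR adjusted p = 3.78e-05), 5.27 ± 0.80 against the 5th instar (8.95e-05) and 2.63 ± 0.70 against the prepupa (0.0225).

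Its neighbour 000926F:21179-22343 (1165 bp) moved in the same way, with 173, 141 and 187 CPM in the prepupal forewing and 166, 137 and 205 CPM in the 6 d hindwing. The hindwing prepupa had 35.1, 1.76 and 51.2 CPM there. These 2 were among only 3 intervals on contig 000926F, whose last interval ends at base 22343. Replicate 3 was low in both intervals in the 6 d forewing and the 72 h hindwing: at 21179-22343 it had 0.115 CPM in the 6 d forewing, where replicates 1 and 2 had 4.14 and 4.66 CPM, and 0.486 CPM in the 72 h hindwing, where they had 3.94 and 6.72 CPM.

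Of the 5 intervals with the highest prepupal forewing mean 3 lay on other contigs. The widest of all, 000513F:105437-110617 (5181 bp), had 193, 136 and 245 CPM in the prepupal forewing, against 25.7 to 76.5 CPM in the forewing at 6 d. In the hindwing it had 189, 133 and 280 CPM at 6 d and 134, 40.5 and 197 CPM in the prepupa, and these groups overlapped (log2 change 0.63 ± 0.49, adjusted p = 0.473). Interval 000050F:871190-874453 (3264 bp) had 140, 212 and 133 CPM in the prepupal forewing and 145, 196 and 121 CPM in the 6 d hindwing, and was called higher at 6 d than in each other hindwing group (adjusted p = 0.0464 against the prepupa). Interval 000001F:4800113-4804427 (4315 bp) had 94.1, 120 and 205 CPM in the prepupal forewing, but its hindwing partner covers its later part only, from 4802339 to 4804480, with 58.0, 61.5 and 84.7 CPM at 6 d and at most 21.6 CPM in any other hindwing library.

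The intervals with the largest ratios were narrower and weaker. At 000180F:59095-59256 (162 bp) the prepupal forewing had 10.5, 7.56 and 8.15 CPM, whereas the other 9 forewing libraries held 1, 2 and 0 reads at the 5th instar, none at 72 h and 0, 0 and 1 at 6 d. The hindwing followed at 6 d with 6.95, 5.77 and 13.6 CPM, and no other hindwing library exceeded 0.382 CPM. Interval 000192F:432422-432643 (222 bp) had 4.11, 5.95 and 5.26 CPM in the prepupal forewing and 5.48, 6.43 and 7.10 CPM in the 6 d hindwing. Its hindwing prepupa libraries had 0.608, 0.167 and 0.765 CPM, and the 5th-instar and 72 h hindwing libraries had no reads. At 6 d both intervals were called higher than in the prepupal hindwing, with edgeR adjusted p values of 2.94e-05 for 000180F and 0.000298 for 000192F. Neither reached the level of the low-count filter, about 1.11 CPM, in any hindwing library outside 6 d. The 6 d libraries alone thus brought both into the test, and nothing is read from these p-values.

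The remaining intervals of large ratio followed the same order, but 1 of them did not pass every test. These intervals, too, passed the low-count filter only with their 6 d libraries, so nothing is read from whether they were called. Interval 000551F:91441-92201 (761 bp) had 7.82, 4.84 and 9.40 CPM in the prepupal forewing and 9.99, 5.88 and 7.67 CPM in the 6 d hindwing, with 2.03, 0 and 1.76 CPM in the prepupal hindwing. Interval 000370F:276733-277191 (459 bp) had 5.14, 7.05 and 3.88 CPM in the prepupal forewing and 2.92, 5.32 and 3.55 CPM in the 6 d hindwing. Interval 000221F:372460-372981 (522 bp) had 6.27, 6.85 and 4.26 CPM in the prepupal forewing. Its 6 d hindwing libraries had 5.48, 6.43 and 1.85 CPM and its prepupal ones 0.541, 0 and 2.68 CPM, so that replicate 3 overlapped, and the edgeR adjusted p of 6 d against the prepupa was 0.0824.

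**Figure D4:**
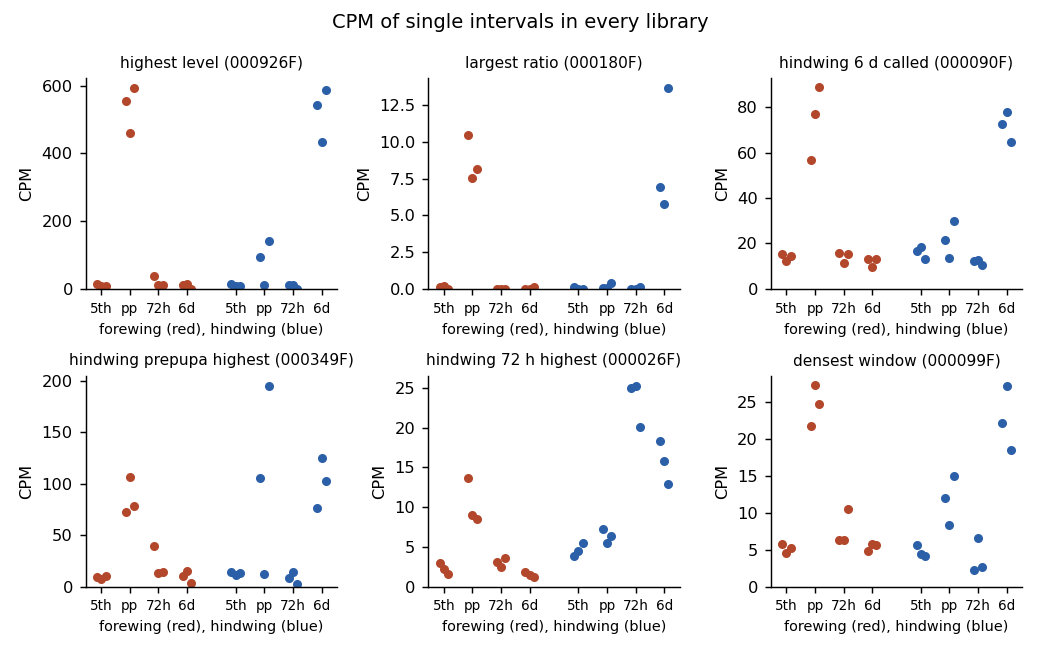
CPM (y axis, linear) of 6 intervals in every library, forewing in red and hindwing in blue, by labelled stage (5th instar, pp for prepupa, 72 h, 6 d). Each point is a library. In the 000926F, 000180F, 000090F and 000099F panels the red points are highest at pp and the blue ones at 6 d, while 000349F and 000026F had their highest hindwing mean in the prepupa and at 72 h.

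The fourth of the most open called intervals in the 6 d hindwing, 000090F:179740-181712 (1973 bp), showed the pattern with little spread: 56.6, 77.2 and 88.7 CPM in the prepupal forewing and 72.6, 78.1 and 64.8 CPM in the 6 d hindwing. Its prepupal hindwing had 21.6, 13.6 and 29.8 CPM, and the 5th-instar and 72 h hindwing libraries lay between 10.4 and 18.4 CPM. It was picked by these hindwing values, so they are given without a test.

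Among the 52 intervals with their highest hindwing mean in the prepupa, replicate 3 was the highest of the 3 prepupal libraries in 44, replicate 1 in 7 and replicate 2 in 1, and the medians were 3.92, 1.84 and 5.28 CPM for replicates 1, 2 and 3. Recounted after seeing the data, the number highest in the prepupa was 58 without replicate 1, 210 without replicate 2 and 19 without replicate 3, and 16 of the 52 remained without replicate 3. The most open, 000349F:72990-78036 (5047 bp), had 76.6, 125 and 103 CPM in the hindwing at 6 d and 106, 12.3 and 195 CPM in the prepupa, so the groups overlapped. Smaller intervals also varied widely within groups of the same label. Interval 000094F:473114-473467 had 21.7, 27.1 and 3.38 CPM in the prepupal forewing and 18.5, 39.6 and 4.54 CPM in the 6 d hindwing, and 21.0, 5.77 and 45.5 CPM in the prepupal hindwing. Interval 000044F:514107-514470 had 31.8, 18.0 and 5.14 CPM in the prepupal forewing and 35.5, 21.9 and 5.11 CPM in the 6 d hindwing, and 18.6, 4.6 and 46.1 CPM in the prepupal hindwing. In both, replicate 3 was the lowest prepupal forewing and 6 d hindwing library and the highest prepupal hindwing one. These 2 were picked by their hindwing means.

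The 6 intervals highest in the 5th-instar hindwing and the 9 highest at 72 h were much narrower than their partners. Their median widths were 303.5 bp and 437 bp, and those of the partners 1046 bp and 902 bp. Where in a partner its reads lay is not recorded in a count table. For 000006F:3791444-3791699 (256 bp) the partner spans 3791447 to 3796232 and had 75.1 to 116 CPM at the 5th instar, while the interval itself had 2.88 to 3.51 CPM in the prepupal forewing. Another case was 000026F:2144025-2144577, with 18.3, 15.9 and 12.9 CPM in the 6 d hindwing and 25.1, 25.3 and 20.04 CPM at 72 h, over a partner that spans 2144061 to 2145329.

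Prepupa-only intervals were of ordinary width and height among open intervals. Their median width was 420 bp (quartiles 334.8 and 590 bp, range 140 to 5181 bp), against 493 bp for the 74135 other forewing intervals with 3 CPM or more in the prepupa and 122 bp for all forewing intervals. Per kilobase of interval their median prepupal level was 11.6 CPM, against 10.8 CPM for those others. The narrowest, 000430F:243668-243807 (140 bp), had 3.81, 1.21 and 4.14 CPM in the prepupal forewing and 4.87, 0.887 and 5.96 CPM in the 6 d hindwing, replicate 2 being low in both.

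They were spread over 448 of 964 contigs, often with another near by. How near other open intervals lie to each other is not given, so a grouping beyond theirs is not shown. Another prepupa-only interval lay within 1000 bp for 556 of them (18.3%), within 10000 bp for 1471 (48.4%) and within 100000 bp for 2496 (82.1%). Of 6156 windows of 100000 bp with a forewing interval 1556 held at least 1 prepupa-only interval, 859 held exactly 1, and 112 held 5 or more, with 707 of the intervals in all. The densest window, 000099F:200001-300000, held 17 among 142 intervals, between 209052 and 272447. All 17 had their highest hindwing mean at 6 d and 7 were called higher there than in each other hindwing group. Over all prepupa-only intervals 97.8% of partners were highest at 6 d and 18.9% of those tested were so called, against 0.829% of all tested hindwing intervals. How many in the window passed the low-count filter only with 6 d libraries is not given, so nothing is read from the 7. Its most open interval, 000099F:210693-212319, had 21.7, 27.2 and 24.7 CPM in the prepupal forewing and 22.2, 27.2 and 18.5 CPM in the 6 d hindwing.

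The next densest windows, 000058F:300001-400000 and 000085F:1600001-1700000, held 11 each, of which 11 and 10 were highest in the 6 d hindwing. In each window 3 were called higher there than in every other group, against 0.829% of all tested hindwing intervals. These calls, too, are not split by how the intervals passed the low-count filter, and nothing is read from them. Their most open intervals were 000058F:303418-306398, with 44.6, 51.5 and 37.9 CPM in the prepupal forewing and 58.7, 54.9 and 45.3 CPM in the 6 d hindwing, and 000085F:1646175-1647318, with 21.9, 17.8 and 20.6 CPM in the prepupal forewing and 24.6, 23.4 and 21.4 CPM in the 6 d hindwing.

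The share of prepupa-only intervals was higher on short contigs, where the last interval end stands in for the contig length. On contigs that end by 50000 bp 35 of 872 forewing intervals were prepupa-only (4.01%), between 50000 and 100000 bp 27 of 2211 (1.22%), and above 1000000 bp 2291 of 396589 (0.578%). On the shortest, 84 intervals had 3 CPM or more in the prepupal forewing and the 35 made up 41.7% of them, against 3.51% on the longest. Contig 000996F held 3 prepupa-only intervals among 6, with a summed level of 100.2 CPM in the prepupal forewing, 12.8 CPM at the 5th instar, 18.4 CPM at 72 h and 11.5 CPM at 6 d over its 6 intervals. In the hindwing its intervals summed to 12.6 CPM at the 5th instar, 52.1 CPM in the prepupa, 11.4 CPM at 72 h and 111.9 CPM at 6 d. What these short contigs hold is not stated by the sources used here, and whether their sequence is repeated elsewhere was not tested.

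Chromatin around prepupa-only intervals leaned the same way. Of 5703 other forewing intervals within 1000 bp of one 80.5% had their highest forewing mean in the prepupa, a share that was 66.0% at 5000 to 10000 bp and 41.0% at 100000 bp or more or on contigs without one. Among tested hindwing intervals that overlap no prepupa-only interval, 3.51% of the 4527 within 1000 bp were called higher at 6 d than in each other group, 1.37% at 5000 to 10000 bp and 0.273% at 100000 bp or more. The median hindwing log2 change at 6 d against 72 h was 1.02 within 1000 bp and -0.23 at 100000 bp or more. The values fell step by step with distance in both wings, and neighbouring intervals are not independent. Over all tested hindwing intervals 0.829% were called higher at 6 d than in each other group. The intervals counted by distance are only a part of those that are not prepupa-only, in both wings, and how they were selected is not given. Some may have passed a low-count filter only through prepupal forewing or 6 d hindwing libraries, so the shares are given as a description.

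**Figure D5:**
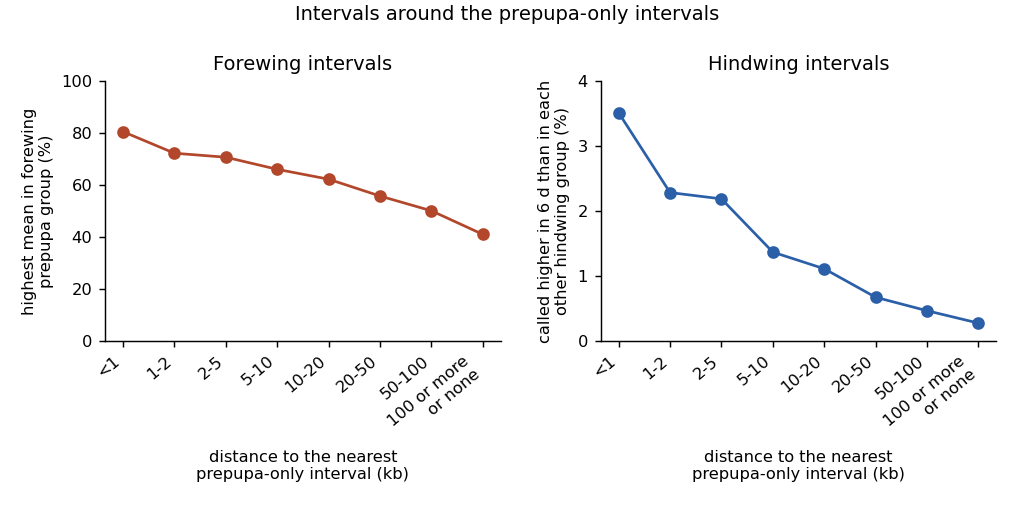
A part of the intervals that are not prepupa-only, by distance to the nearest prepupa-only one (x axis, kb). Left, share of forewing intervals whose highest mean is in the prepupa group (%, 80.5 to 41.0); right, share of tested hindwing intervals called higher at 6 d than in each other hindwing group (%, 3.51 to 0.273). Both shares fall with distance.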

How the data were processed

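The deposited values were counts of reads per interval, not normalized, given as separate tables for forewing and hindwing, each with intervals of its own; Bowtie2 and deepTools were used, per the submitters' processing notes, which give no versions. The genome build, peak caller, read filters and handling of duplicate reads are not stated by the sources used here. Duplicates or multiply mapped reads left in the counts would make counting errors too small. Starts are 0-based in the tables and are printed 1-based.

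CPM was the count over the column total. Hindwing counts were tested by edgeR 4.0.16, quasi-likelihood F test (limma 3.58.1, R 4.3.3) with TMM factors, filterByExpr (minimum count 10, minimum total 15), all 12 libraries in one fit, and Benjamini-Hochberg adjustment over tested intervals per contrast. DESeq2 1.42.0 was an alternative, and tables were handled with Python 3.11.15 (pandas 2.3.3). The 2 tables were normalized apart, so levels set across wings rest on each table's totals. The edgeR step was tested on 20000 simulated intervals. Of 100 changed 4-fold 84% were recovered for 6 d against the 5th instar, 90% against the prepupa and 83% against 72 h. Of 100 changed 2-fold the shares were 5%, 9% and 8%. False calls were 4 of 93, 4 of 103 and 3 of 94 calls. A far smaller share of intervals changed there than in these data, where 39.1% were called jointly. The recovery therefore holds for the simulated setting and may differ in the data.

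Whether replicates came from separate animals is not labelled, and the p-values therefore cover only the spread of these libraries, possibly a technical one. The intervals, tests and settings were chosen with earlier results of these data known, including the likeness of the prepupal forewing and the 6 d hindwing. Named intervals were the 5 of highest prepupal forewing mean, the 5 of largest ratio (means raised to 3 counts over the group where lower), those nearest to each threshold, the 4 most open called in the 6 d hindwing, the 4 most open with the highest hindwing mean in the prepupa and the 3 each for the 5th instar and 72 h, those without a partner, the most open in the 3 densest windows, and the widest and narrowest; the text prints part of them. Contig 000996F and those of short length were picked after their values were seen. A planned search for motifs was not run, as no genome was used here.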

Additional observations from a re-analysis of the deposited data

Results flagged for a closer look

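The share of counts held by the prepupa-only intervals moved in opposite directions between the wings where the labels are the same. At 6 d against 72 h the share was 1.803 percentage points higher in the hindwing and changed by -0.183 points in the forewing. At 6 d against the prepupa it was 1.122 points higher in the hindwing and changed by -1.972 points in the forewing, where the rule fixes the direction. At 6 d against the 5th instar it was 1.684 points higher in the hindwing and changed by -0.061 points in the forewing. Each was picked out because every hindwing library of the first group lay on one side of the second and every forewing library on the other. The difference between the wings was not tested.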

How the results depend on the processing

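The number of prepupa-only intervals followed the thresholds: it was 661 with TMM-scaled CPM, 15807 at a fold of 2, 521 at a fold of 5, 5091 at a minimum of 2 CPM, 1468 at 5 CPM, and 895 against the highest single library of each other group; without one library at a time it was 2536 to 3961. Most hindwing counts changed little under RLE factors, DESeq2, no filter on low counts or a 50% overlap. With library totals alone, 515 partners rose in the prepupa against the 5th instar, 1591 fell and 15 rose at 72 h against the prepupa, 1 fell at 6 d against 72 h and 1 was called highest at 72 h. In the prepupa against the 5th instar 8 fell with DESeq2, 2 without the filter and 1 at 50% overlap; at 50% overlap 12 rose at 72 h against the prepupa, and 0 fell at 6 d against the 5th instar or 72 h or were highest at 72 h.

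Fewer intervals enter at 80% overlap (1484) and with TMM-scaled choice (661). At 80% overlap 1277 were called jointly; 1099, 365 and 1277 rose at 6 d against the 5th instar, prepupa and 72 h; 179 rose in the prepupa against the 5th instar; 500 fell and 4 rose at 72 h against the prepupa; and 323 were highest at 6 d. With TMM-scaled choice these counts were 596; 550, 214 and 587; 147; 264 and 4; and 195, and 2 fell in the prepupa against the 5th instar. The other falls and highest-at-72 h counts were 0. The rule was met for the 6 d hindwing by 275 with TMM scaling, 1266 at a fold of 2 and 279 at 80% overlap.

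Without one hindwing library at a time the ranges were 1901 to 2419 (joint), 1366 to 2086 up and 1 to 4 down at 6 d against the 5th instar, 276 to 716 up against the prepupa, 1957 to 2382 up and 2 to 8 down against 72 h, 69 to 549 up and 0 to 10 down in the prepupa against the 5th instar, 15 to 33 up and 369 to 1033 down at 72 h against the prepupa, 229 to 562 highest at 6 d, 2 to 4 highest at 72 h, 282 to 705 meeting the rule for 6 d and 0 to 1 for the prepupa. The cause of these shifts was not tested.

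Replicate numbers did not pair the hindwing libraries: the correlation of same-numbered deviations was -0.07 to 0.11. With a replicate block 517 were highest at 6 d and 612 rose at 6 d against the prepupa. Small, uncalled log2 changes of 6 d minus prepupa turned sign at 000349F:72990-78036 (0.000344 with RLE factors, 0.0014 with DESeq2, -0.59 to 0.71 without single libraries), 000091F:971064-971315 (0.059 with library totals, -0.44 to 0.44), 000094F:473114-473467 (0.083 with the block, -1.11 to 0.53), 000072F:123840-124159 (-0.40 to 0.11) and 000044F:514107-514470 (-0.81 to 0.73), as did 6 d minus 5th instar at 000096F:470543-471335 (-0.18 to 0.20).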

Other observations

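The same rule gave 1401 forewing intervals for the 5th instar, 2573 for 72 h and 4603 for 6 d, so the prepupal forewing was neither the group with the most nor the one with the fewest intervals of its own. In the hindwing it was met by 0.202% of intervals for 6 d and by 0.123% for the prepupa. Between the other groups of the 2 wings Pearson r of the profiles was 0.91 between the 6 d forewing and the 72 h hindwing, 0.58 between the 72 h forewing and the prepupal hindwing and 0.86 between the 5th-instar wings, over 97467 intervals that were not prepupa-only.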
